A study of Mus musculus with 6 samples.

Results

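Ribosome biogenesis genes and classical MYC growth targets were compared between 2 cell fractions of mouse small cell lung cancer, a neuroendocrine lung tumour. The set holds 45 genes chosen by name: nucleolar and ribosome assembly factors, RNA polymerase I genes and growth genes long known as targets of MYC. A gene entered through the probe sets annotated to it alone, and its brightest probe set over the 6 arrays gave its level. In this way 44 of the 45 genes were measured, out of 18193 genes on the array. Mrto4, a ribosome assembly factor, was not analysed here because its listed probe set is shared with 2 pseudogenes.

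One fraction was sorted as tumour-propagating cells (TPCs) and was compared with non-TPCs, each from mice 1127, 920 and 0107, which gives 3 arrays per fraction and 1 pair per mouse. All animals were on a mixed C57BL/6;129Sv/J background. All tumours lacked Rb, p53 and p130 after Adeno-Cre infection and were harvested 6-7 months later without treatment. Both fractions come from these animals, but which share of the cells in each fraction carried the deletions was not measured here. The sort used the surface proteins CD24, CD44 and EpCAM; neither the gates, nor the promoter driving Cre, nor the age of the mice is given in the sources used here. The sources also do not say whether a sample holds cells of 1 tumour or of several.

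Ribosomes are assembled in the nucleolus, where RNA polymerase I transcribes the ribosomal RNA precursor. Small nucleolar ribonucleoproteins modify this precursor, and a long series of assembly factors cuts, folds and packs it with ribosomal proteins into a small and a large subunit. MYC proteins (MYC, MYCN and MYCL), which bind DNA with MAX at the E-box sequence, are known to raise transcription of many genes of this pathway together with genes for polyamine and pyrimidine synthesis and for protein folding. Small cell lung cancers often carry amplified copies of a MYC family gene.

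Levels are log2 values from RMA, an array normalisation, and each difference is the TPC level minus the non-TPC level, so that 1 unit is a 2-fold change. Neuroendocrine markers were well above the median gene level of 6.91 on all arrays: their mean level ranged from 10.12 to 10.58 in TPCs and from 9.81 to 10.23 in non-TPCs (12 of 14 markers measured, all 12 above the median level). The non-TPC array of mouse 0107 stood apart from the others in its high values. It held the highest of the 6 values for 28.2% of all genes, against 9.86% to 19% for the other arrays. Its value was the lowest for 3806 of the 18193 genes, against 4539 for the non-TPC array of mouse 1127, the most of any array. The non-TPC array of mouse 0107 also carried a very high level of Mycn. The member medians and the gene differences that turn on it are also given with it left out.

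The member genes had no common difference between TPCs and non-TPCs over the 3 mice. The member median in mouse 0107 ran opposite to those in mice 1127 and 920. In mouse 1127, 36 of the 44 members were higher in TPCs (59.2% of all genes), with a median of 0.21. In mouse 920, 30 were higher (57.8% of all genes) and 14 lower (42.1%), with a median of 0.15. In mouse 0107, 38 were lower in TPCs (53.6% of all genes), with a median of -0.85. The medians over all genes in the same mice were 0.07, 0.05 and -0.03. Since these are bulk samples, fewer cells of a type and less RNA per cell cannot be told apart.

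Over the 3 mice the median member difference was -0.11, against 0.04 over all genes. Leaving out mouse 0107 gave 0.19, and leaving out its non-TPC array alone gave 0.10. The median was -0.30 without mouse 1127 and -0.28 without mouse 920. Of the 44 members, 0 passed limma at an adjusted p under 0.05, where 0.0605% of all genes did. At an unadjusted p under 0.05 there was 1 member, Rrp12, against 6.48% of all genes, and 2.12% of all genes had such a p and were higher in TPCs as Rrp12 was. In a fit that added the mouse as a replicate block, 0 members passed as well, against 0.0715% of all genes, the smallest limma adjusted p of a member being 0.363. The groups did not overlap for 2 members, Rrp12 and Odc1, both higher in TPCs, where 6.71% of all genes were so placed. For 0 members did all TPC arrays lie below all non-TPC arrays, a pattern seen in 5.91% of all genes. The sign was the same in all 3 mice for 4 members higher in TPCs, against 19.7% of all genes, and for 2 lower in TPCs, against 13.8%.

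**Figure D1:**
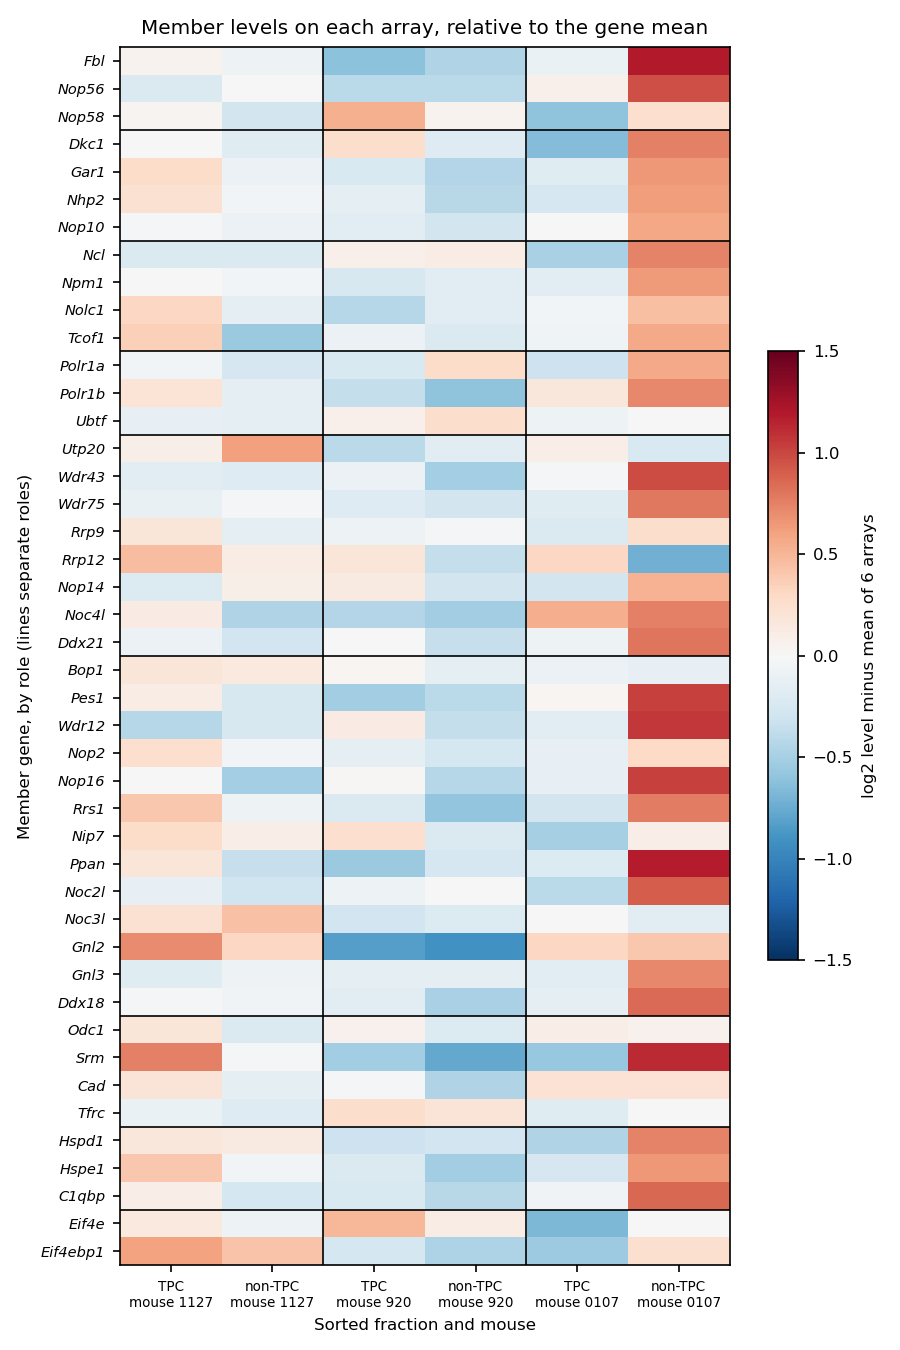
Level of each of the 44 member genes (rows, grouped by role) on the 6 arrays (columns, TPC left of non-TPC within each mouse), as the log2 level minus the gene's mean over the arrays. The non-TPC array of mouse 0107 holds the highest value for 31 of the 44 genes, against 28.2% of all genes.

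The lower level in TPCs of mouse 0107 was broad over the members, and the opposition to both other mice was less so. The combination of a higher level in TPCs of mice 1127 and 920 with a lower level in TPCs of mouse 0107 was seen in 22 of 44 members and in 21.1% of all genes. A TPC level more than 0.5 below that of the non-TPCs was found in mouse 0107 for 31 members, against 13% of all genes. In mouse 1127 the same size was reached by 1 member (10.7% of all genes) and in mouse 920 by 1 member (7.59%). A TPC level more than 0.5 above was found for 5 members in mouse 1127 (6.4% of all genes), 1 in mouse 920 (4.82%) and 1 in mouse 0107 (12.3%). A level lower by more than 1 was found in mouse 0107 for 11 members (4.27% of all genes), and for 0 members in mouse 1127 (4.23%) and mouse 920 (2.87%). The members are abundant transcripts, 41 of them above the median gene level, but among the 9096 genes above that level the share lower by over 0.5 in mouse 0107 was 16.7%, against 29 of the 41 members there. The sizes of 0.5 and 1 were chosen after the values were seen, and with 1 pair in mouse 0107 the difference between mice has no replicate and was not tested.

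**Figure D2:**
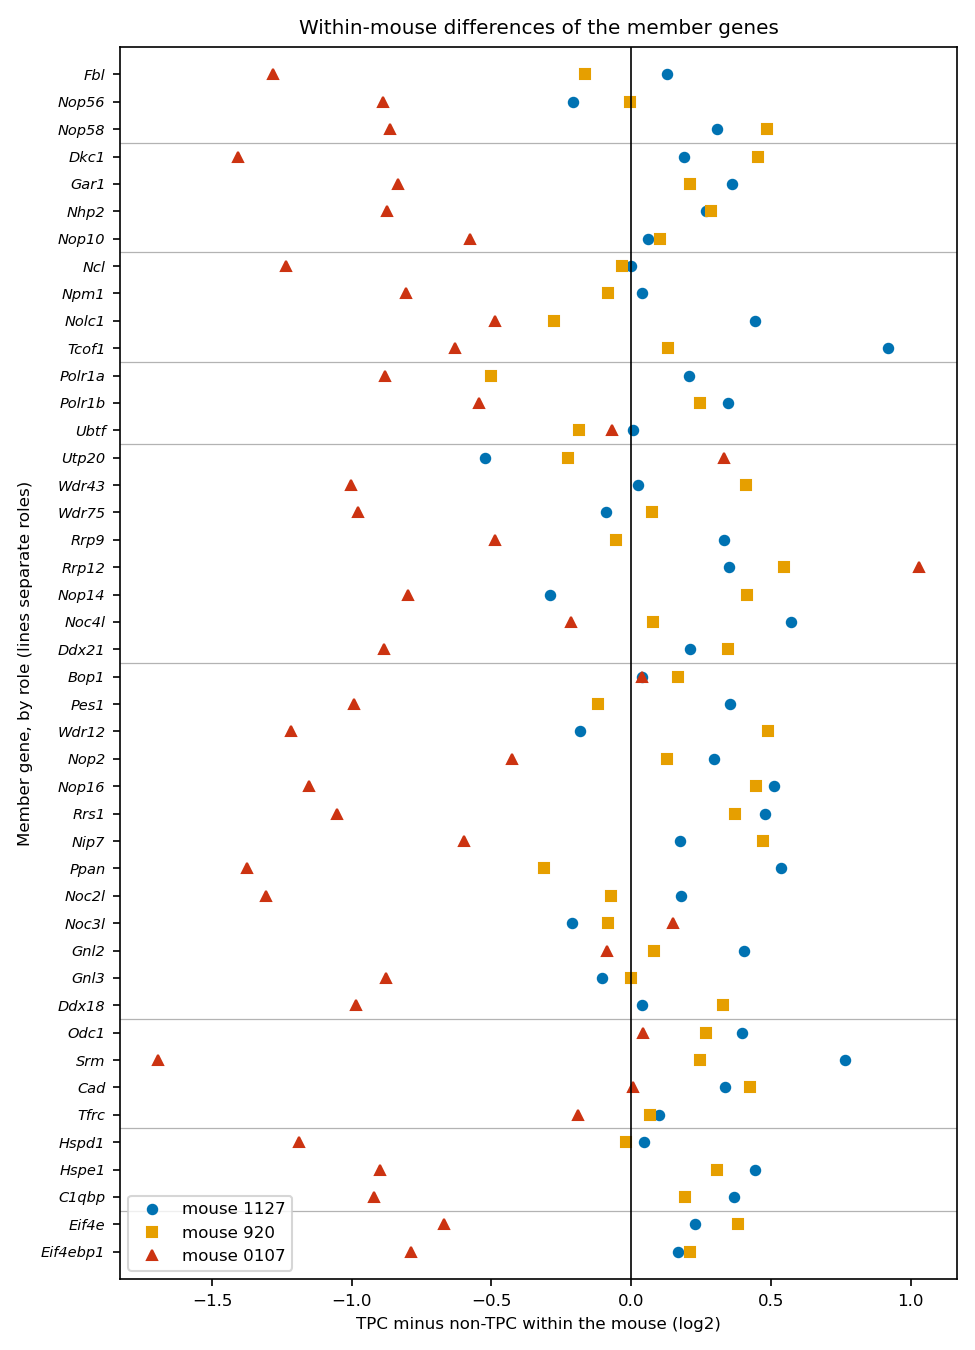
Difference between TPCs and non-TPCs within each mouse for the 44 member genes (rows, grouped by role); circles, squares and triangles stand for mice 1127, 920 and 0107. The triangles lie left of 0 for 38 genes and reach -1.69 for Srm, while Rrp12 lies right of 0 in all 3 mice.

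The distance in mouse 0107 lay mostly on its non-TPC side. Set against the mean of the other non-TPC arrays, that array was higher by a median of 0.83 over the members (0.09 over all genes), and 31 members exceeded 0.5, against 14.1% of all genes. The TPC array of mouse 0107 differed from the mean of the other TPC arrays by a median of -0.05 over the members (-0.01 over all genes). It was over 0.5 higher for 1 member, Noc4l (5.47% of all genes), and over 0.5 lower for 6 (6.76%), namely Nop58, Dkc1, Nip7, Srm, Eif4e and Eif4ebp1. The mean member level was 9.58, 9.33 and 9.31 in TPCs of mice 1127, 920 and 0107, and 9.38, 9.19 and 10.01 in their non-TPCs. The spread among the TPC arrays was thus smaller than the distance of the non-TPC array of mouse 0107 from any other array.

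Other probe sets of the member genes, which did not give the levels above, can be set beside these values. There were 32 of them above the median gene level, from 24 genes. In mouse 0107, 28 of the 32 were lower in TPCs, 21 by more than 0.5, with a median of -0.72. Their medians were 0.14 in mouse 1127 and 0.13 in mouse 920. They read the same RNA on the same arrays and are not further samples.

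The MYC family was measured on the same arrays. Mycn was at 7.33, 7.42 and 10.64 in TPCs of mice 1127, 920 and 0107, and at 7.44, 6.94 and 13.70 in their non-TPCs. Mycl was at 9.73, 9.39 and 8.16 in TPCs of the same mice, against 8.48, 8.17 and 7.14 in non-TPCs, lowest in both fractions of mouse 0107. It was higher in TPCs of 3 of 3 mice, with a difference of 1.16 (limma adjusted p = 0.774, against 0.0843 in the fit with the replicate block). Myc was at 6.84, 6.71 and 6.95 in TPCs, against 8.10, 7.25 and 6.68 in non-TPCs. The array with the highest Mycn was thus the array with the highest mean member level. The TPC array of mouse 0107 had Mycn 3.27 above the mean of the other TPC arrays, while its median member lay at -0.05 relative to them. Max was between 6.69 and 7.08 on all arrays. The part of any MYC family gene in the member levels was not tested, and no correlation is given over 3 mice.

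**Figure D3:**
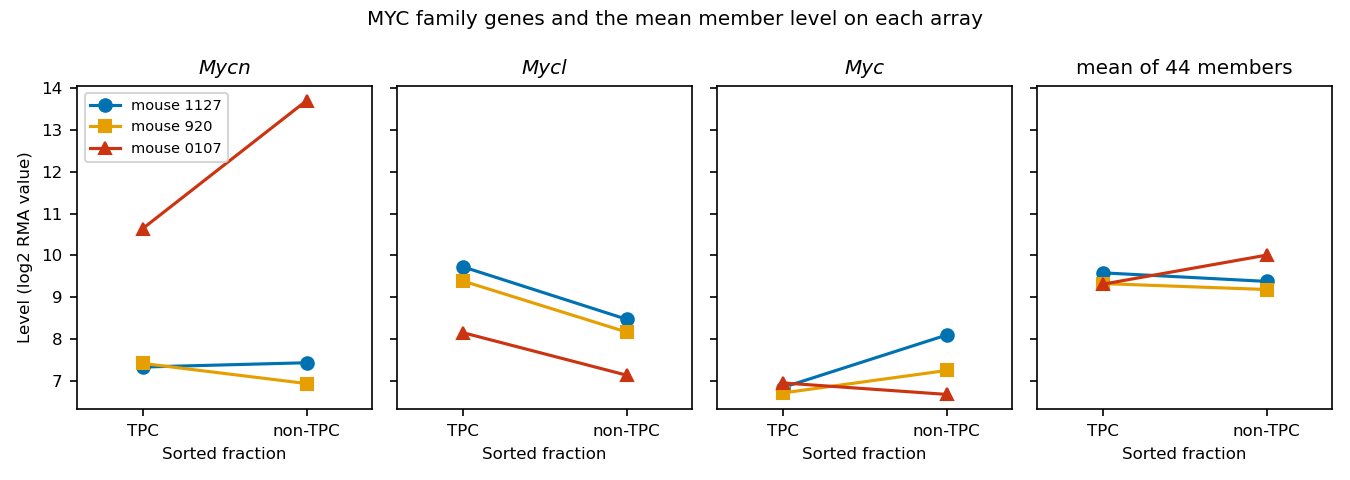
Level (log2 RMA value) of Mycn, Mycl and Myc and the mean level of the 44 measured members in TPCs (left of each panel) and non-TPCs (right), with a line joining the 2 arrays of a mouse. Mouse 0107 had Mycn levels of 10.64 (TPC) and 13.70 (non-TPC) and mean member levels of 9.31 (TPC) and 10.01 (non-TPC); in the other mice the member line runs slightly the opposite way.

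The promoters of the member genes were searched for the E-box CACGTG, the palindrome that MYC and MAX bind and which reads the same on both strands. RefSeq promoter windows (GRCm38.p6, 250 bases before to 50 after a gene start) were found for 36 of the 45 genes. The motif was in a window of 6 of them (16.7%), against 8.09% of all 27025 genes with a window and 10.2% of those also measured on the array. Stretches around it are given 5′ to 3′ with the E-box in capitals, because these are the members with the motif in a window. Binding of MYC or any other protein to it was not measured. The stretches of Hspd1 and Eif4e belong to 1 of 2 annotated starts of each gene.
Nop2 (chr6:125131723-125131882, plus strand): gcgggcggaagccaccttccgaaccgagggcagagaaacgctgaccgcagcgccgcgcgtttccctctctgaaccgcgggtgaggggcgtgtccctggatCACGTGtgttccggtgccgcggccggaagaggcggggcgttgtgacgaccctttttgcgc
Hspd1 (chr1:55088244-55088403, minus strand): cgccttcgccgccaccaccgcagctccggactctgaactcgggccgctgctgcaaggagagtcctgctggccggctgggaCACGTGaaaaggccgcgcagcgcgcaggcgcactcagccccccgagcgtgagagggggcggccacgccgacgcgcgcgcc
Eif4e (chr3:138527018-138527267, plus strand): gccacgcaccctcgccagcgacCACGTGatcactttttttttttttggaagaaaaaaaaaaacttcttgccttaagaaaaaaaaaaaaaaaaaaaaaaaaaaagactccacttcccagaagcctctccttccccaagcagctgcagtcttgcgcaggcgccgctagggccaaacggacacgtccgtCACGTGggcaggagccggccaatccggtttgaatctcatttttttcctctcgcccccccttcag
Pes1 (chr11:3963965-3963994, plus strand): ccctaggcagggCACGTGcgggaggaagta
Wdr43 (chr17:71616220-71616249, plus strand): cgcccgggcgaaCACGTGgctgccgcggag
Utp20 (chr10:88826765-88826789, minus strand): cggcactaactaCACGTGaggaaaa

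The E-box began 60 bases before the start of Nop2, 80 before that of Hspd1 and 64 and 228 before that of Eif4e, and lay within the first 50 transcribed bases of Pes1, Wdr43 and Utp20. In mouse 0107 the TPC minus non-TPC difference was -0.42 for Nop2, -1.19 for Hspd1, -0.67 for Eif4e, -0.99 for Pes1, -1.004 for Wdr43 and 0.33 for Utp20. The median in that mouse was -0.83 over these 6 genes and -0.88 over the 29 measured members with a window but no E-box in it. The windows hold only 50 bases past the start, and a missing motif says only that these letters are not in this window.

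The box C/D and box H/ACA ribonucleoproteins guide methylation and pseudouridylation of ribosomal RNA. All 7 of their measured proteins were lower in TPCs of mouse 0107, each by over 0.5, as were 13% of all genes. Fbl, the methyltransferase of box C/D particles, was at 9.88, 9.22 and 9.74 in TPCs of mice 1127, 920 and 0107 and at 9.75, 9.38 and 11.02 in their non-TPCs. Its difference was -0.44 (SE 0.43, limma adjusted p = 0.911), the lowest of the set, but 0.045 when the non-TPC array of mouse 0107, which stood above all others, was left out. Nop56, a core protein of the same particles, was at 10.58, 10.38 and 10.87 in TPCs and at 10.79, 10.39 and 11.76 in non-TPCs (difference -0.37, adjusted p = 0.909, and 0.02 with the same array left out). Its partner Nop58 differed by 0.31, 0.49 and -0.86 in the 3 mice, and the TPC array of mouse 0107 was its lowest.

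Dkc1, the pseudouridine synthase of box H/ACA particles, was at 9.89, 10.14 and 9.23 in TPCs of mice 1127, 920 and 0107 and at 9.70, 9.69 and 10.64 in their non-TPCs. Its fractions overlapped, and in mouse 0107 they differed by -1.41, with the TPC array lowest and the non-TPC array highest of the 6 (mean difference -0.25, SE 0.34, limma adjusted p = 0.929). The mean was 0.06 with that non-TPC array left out. On 2 further Dkc1 probe sets the non-TPC array of mouse 0107 was again the highest, but its TPC array, at 9.37 and 7.83, was the highest of the TPC arrays. The other proteins of this particle ran the same way. Gar1 differed by 0.36, 0.21 and -0.83, Nhp2 by 0.27, 0.29 and -0.88, and Nop10 by 0.06, 0.10 and -0.58 in mice 1127, 920 and 0107.

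The 4 nucleolar scaffold and chaperone genes spanned the range of member levels, with Npm1 and Ncl among the brightest and Tcof1 among the dimmest. Ncl, nucleolin, was at 11.66, 11.96 and 11.39 in TPCs of mice 1127, 920 and 0107 and at 11.66, 11.99 and 12.63 in their non-TPCs. On this probe set the differences were -0.00, -0.03 and -1.24 in the 3 mice (mean -0.42, SE 0.28, limma adjusted p = 0.878, and -0.16 with the non-TPC array of mouse 0107 left out). The 3 other Ncl probe sets above the median gene level differed by 0.12, 1.10 and 0.23 in mouse 1127, by 0.37, -0.38 and 0.39 in mouse 920 and by -0.66, -0.99 and -0.75 in mouse 0107. The sign was thus shared by all 4 in mouse 0107 and not in mice 1127 and 920. Npm1, nucleophosmin, a histone and ribosome chaperone, was at 13.11, 12.88 and 12.95 in TPCs and at 13.07, 12.96 and 13.75 in non-TPCs (difference -0.28, adjusted p = 0.898, and -0.04 with that array left out). On a second Npm1 probe set the TPC array of mouse 0107 was the low one, at 11.47. Nolc1, a scaffold that links polymerase I with small nucleolar particles, differed by 0.44, -0.28 and -0.49 in the 3 mice. Tcof1, treacle, which acts with it, differed by 0.92, 0.13 and -0.63 at a level below the median of all genes.

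The 3 RNA polymerase I genes differed among themselves. Polr1a, its largest subunit, was at 7.24, 7.06 and 6.97 in TPCs of mice 1127, 920 and 0107 and at 7.04, 7.56 and 7.85 in their non-TPCs. It was lower in TPCs of mouse 920 as well (-0.50), and its mean difference was -0.39 (SE 0.23, limma adjusted p = 0.873, and -0.21 with the non-TPC array of mouse 0107 left out). On the next brightest Polr1a probe sets the differences in mouse 920 were smaller, at -0.09 and -0.08. Polr1b, the second largest subunit, was dim, at 6.33, 5.77 and 6.29 in TPCs and at 5.99, 5.52 and 6.84 in non-TPCs (difference 0.02, adjusted p = 0.994). Ubtf, the factor that opens ribosomal DNA for the polymerase, stayed between 9.17 and 9.57 on all arrays on its brightest probe set. It was at 9.17, 9.38 and 9.22 in TPCs and at 9.17, 9.57 and 9.29 in non-TPCs (difference -0.08, adjusted p = 0.945). A dimmer Ubtf probe set was uneven, at 8.21, 7.68 and 6.54 in TPCs and at 7.68, 7.97 and 6.52 in non-TPCs. Both fractions of mouse 0107 were its lowest.

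Among the 8 small subunit assembly factors, 6 were lower in TPCs of mouse 0107 (53.6% of all genes) and 2, Rrp12 and Utp20, were higher (46.3%). Wdr75, a member of the complex that binds the nascent precursor, was at 9.36, 9.28 and 9.29 in TPCs of mice 1127, 920 and 0107 and at 9.45, 9.20 and 10.27 in their non-TPCs. Its TPC arrays had an SD of 0.045 and only the non-TPC array of mouse 0107 stood off (difference -0.33, SE 0.27, limma adjusted p = 0.899, and -0.02 with that array left out). In that mouse Wdr43, of the same complex, differed by -1.004, the RNA helicase Ddx21 by -0.88, Nop14 by -0.80 and the U3 particle protein Rrp9 by -0.49. On its brightest probe set Noc4l, the partner of Nop14, had high levels in both fractions of mouse 0107. It was at 8.24, 7.68 and 8.66 in TPCs and at 7.67, 7.60 and 8.88 in non-TPCs. Its mouse means spanned 1.13, more than the within-mouse differences of 0.57, 0.08 and -0.22. A second probe set was also highest in mouse 0107, at 8.74 (TPC) and 8.94 (non-TPC). On 2 dimmer ones the TPC array of mouse 0107, at 6.89 and 7.06, lay below that of mouse 1127, at 7.29 and 7.19. The high level in both fractions was thus not seen on every Noc4l probe set.

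Rrp12, which helps to export both subunits from the nucleus, had the smallest p of the set. It was at 6.41, 6.13 and 6.26 in TPCs of mice 1127, 920 and 0107 and at 6.06, 5.59 and 5.23 in their non-TPCs. Every TPC array lay above every non-TPC array, and the difference was 0.35, 0.55 and 1.03 in the 3 mice. The mean of 0.64 (SE 0.23, limma adjusted p = 0.673) did not pass, nor did it in the replicate block fit (0.363). Its only probe set lies below the median gene level. Utp20, a scaffold of the early small subunit, differed by -0.52, -0.23 and 0.33, the reverse of most members, also from a single probe set.

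Of the 13 measured large subunit factors, 11 were lower in TPCs of mouse 0107 (53.6% of all genes). The median over the group in that mouse was -0.98. Noc2l, which forms a complex with Noc3l, was at 7.98, 8.02 and 7.70 in TPCs of mice 1127, 920 and 0107 and at 7.80, 8.09 and 9.01 in their non-TPCs. The non-TPC array of mouse 0107 was again the only one above the rest (difference -0.40, SE 0.31, limma adjusted p = 0.895, and -0.05 with it left out). Gnl3, nucleostemin, a nucleolar GTPase of proliferating and stem cells, was at 10.55, 10.58 and 10.57 in TPCs and at 10.66, 10.58 and 11.45 in non-TPCs (difference -0.33, adjusted p = 0.89, and -0.05 with the same array left out). Its SD over the TPC arrays was 0.015, the narrowest of the set, against 0.48 over the non-TPC arrays.

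The PeBoW complex of Pes1, Bop1 and Wdr12 matures the RNA of the large subunit. Pes1 differed by -0.99 and Wdr12 by -1.22 in mouse 0107, while Bop1 differed by 0.04, 0.17 and 0.04 in the 3 mice. Bop1 was the member of the trio with an even level on its brightest probe set, between 7.01 and 7.33 on all arrays. Its other probe set, below the median gene level, differed by -0.22, -0.65 and -0.37 in mice 1127, 920 and 0107. The other factors with a large difference in mouse 0107 were Ppan (-1.37), Nop16 (-1.15), Rrs1 (-1.05) and the helicase Ddx18 (-0.98), and Nip7 (-0.60) and the methyltransferase Nop2 (-0.42) differed less. Noc3l differed by -0.21, -0.08 and 0.15.

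Gnl2, a GTPase needed for release of the large subunit, varied more between mice than between fractions. It was at 11.32, 9.78 and 10.92 in TPCs of mice 1127, 920 and 0107 and at 10.91, 9.70 and 11.01 in their non-TPCs. Its mouse means spanned 1.38, the widest range of the set, with mouse 920 low in both fractions. Its difference was 0.13 (SE 0.50, limma adjusted p = 0.972), where the SE includes the spread between mice. In the replicate block fit the SE was 0.15 (limma adjusted p = 0.815). The range was narrowest for Rrp9, whose mouse means spanned 0.07.

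The growth genes outside the nucleolus were mixed. Srm, spermidine synthase, had the largest difference of any member in mouse 0107. It was at 11.20, 9.92 and 9.88 in TPCs of mice 1127, 920 and 0107 and at 10.43, 9.68 and 11.57 in their non-TPCs. It was higher in TPCs of mice 1127 and 920, by 0.77 and 0.25, and differed by -1.69 in mouse 0107, which left a mean of -0.23 (SE 0.55, limma adjusted p = 0.96), and 0.28 with the non-TPC array of that mouse left out.

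Odc1, ornithine decarboxylase, which makes the polyamine that Srm extends, behaved differently. It was at 11.36, 11.24 and 11.27 in TPCs of mice 1127, 920 and 0107 and at 10.96, 10.97 and 11.23 in their non-TPCs. It was higher in TPCs of 3 of 3 mice and its fractions did not overlap, the nearest arrays being at 11.24 (TPC) and 11.23 (non-TPC), but the difference of 0.24 (SE 0.13, limma adjusted p = 0.872) did not pass, and 2 further Odc1 probe sets above the median level differed by -0.01 and 0.33. Cad, the enzyme of the first steps of pyrimidine synthesis, was at 7.59, 7.37 and 7.62 in TPCs and at 7.25, 6.94 and 7.61 in non-TPCs (difference 0.26, adjusted p = 0.892). Its fractions were level in mouse 0107 (0.01) and apart by 0.34 and 0.43 in mice 1127 and 920. On 2 dimmer Cad probe sets, both below the median gene level, the differences in mouse 0107 were -0.35 and -0.07. Tfrc, the transferrin receptor that imports iron, was at 10.87, 11.23 and 10.78 in TPCs and at 10.77, 11.16 and 10.97 in non-TPCs (difference -0.01, adjusted p = 0.995).

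The mitochondrial chaperone genes ran with the nucleolar ones. Hspd1, which encodes HSP60, was at 12.48, 11.999 and 11.86 in TPCs of mice 1127, 920 and 0107 and at 12.44, 12.02 and 13.05 in their non-TPCs. In mice 1127 and 920 the differences were 0.04 and -0.02, and the mean difference was -0.39 (SE 0.30, limma adjusted p = 0.892), and -0.11 with the non-TPC array of mouse 0107 left out. Its co-chaperone Hspe1 differed by 0.44, 0.31 and -0.90 in mice 1127, 920 and 0107, and C1qbp, a multifunctional protein of the mitochondrial matrix, by 0.37, 0.19 and -0.92.

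Both cap-dependent translation genes were lower in TPCs of mouse 0107, as were 53.6% of all genes. Eif4ebp1, a repressor of the cap-binding protein eIF4E, was at 9.86, 9.002 and 8.71 in TPCs of mice 1127, 920 and 0107 and at 9.69, 8.79 and 9.50 in their non-TPCs (difference -0.14, SE 0.36, limma adjusted p = 0.963, and -0.05 with the non-TPC array of mouse 0107 left out). Its level was highest in mouse 1127 in both fractions. Eif4e was at 10.48, 10.83 and 9.65 in TPCs and at 10.26, 10.44 and 10.32 in non-TPCs, with the TPC array of mouse 0107 the lowest. A second Eif4e probe set, almost as bright, was at 10.13, 10.28 and 10.12 in TPCs and at 10.19, 9.89 and 10.94 in non-TPCs, with the non-TPC array of mouse 0107 the highest. The probe sets of Eif4e thus differ in which fraction of that mouse stands apart.

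Further genes of the same pathways, from lists drawn up from pathway knowledge, had 0 genes past limma's adjusted threshold in either direction. Only 0.0605% of all genes passed it. Among 94 other ribosome assembly factors, 79 were lower in TPCs of mouse 0107 (53.6% of all genes) and 46 by over 0.5 (13%). Their medians were 0.04, 0.11 and -0.49 in mice 1127, 920 and 0107. The smallest p in that list belonged to the nuclear ATPase Mdn1 (difference -0.47), the helicase Dhx37 (0.44) and Las1l of the RNA processing complex (-0.36), with adjusted p from 0.595 to 0.849. The 27 other genes of polymerases I and III had medians of 0.05, -0.03 and -0.18, with Bdp1 at -0.29, Gtf3c2 at -0.35 and Ttf1 at 0.28. The 11 other small nucleolar particle assembly genes had medians of -0.05, 0.27 and -0.45. Naf1, an assembly factor of box H/ACA particles, had the largest difference in that list, at 10.94, 10.68 and 10.66 in TPCs and at 10.18, 9.85 and 9.35 in non-TPCs (difference 0.97, adjusted p = 0.424). Naf1 and Pih1d1 (0.04, 0.58 and 0.30 in mice 1127, 920 and 0107) were the 2 genes of the list that were higher in TPCs of mouse 0107. The fractions did not overlap for Naf1, which ran opposite to Dkc1, Gar1, Nhp2 and Nop10 in mouse 0107.

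The 10 host genes of small nucleolar RNAs had medians of 0.26, 0.06 and -0.47 in mice 1127, 920 and 0107, with Snhg7 at -0.60, Snhg8 at 0.29 and Gas5 at -0.19 over the mice. The 34 other MYC growth targets had medians of 0.21, 0.19 and -0.37. The amino acid transporter Slc7a5 differed by 0.76, the cyclin Ccnd2 by -0.78 and hexokinase Hk2 by -0.44 (adjusted p from 0.549 to 0.861). The finished ribosome's own proteins differed by smaller amounts but often in the same direction in mouse 0107: 37 of 43 ribosomal protein genes (86.0%) were lower in its TPCs, against 86.4% of the members and 53.6% of all genes. In mouse 920, 33 (76.7%) were lower, against 31.8% of the members and 42.1% of all genes. The ribosomal protein medians were 0.01, -0.05 and -0.15 in mice 1127, 920 and 0107, and 3 of these genes were lower by over 0.5 in mouse 0107, against 31 of the 44 members and 13% of all genes. Of the ribosomal protein genes, Rpl12 differed by -0.58, Rps4x by -0.16 and Rpl7a by -0.15. That list had 76 genes, of which the 43 were measured, at a median level of 13.25 where the highest value of any probe set was 14.81.

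**Figure D4:**
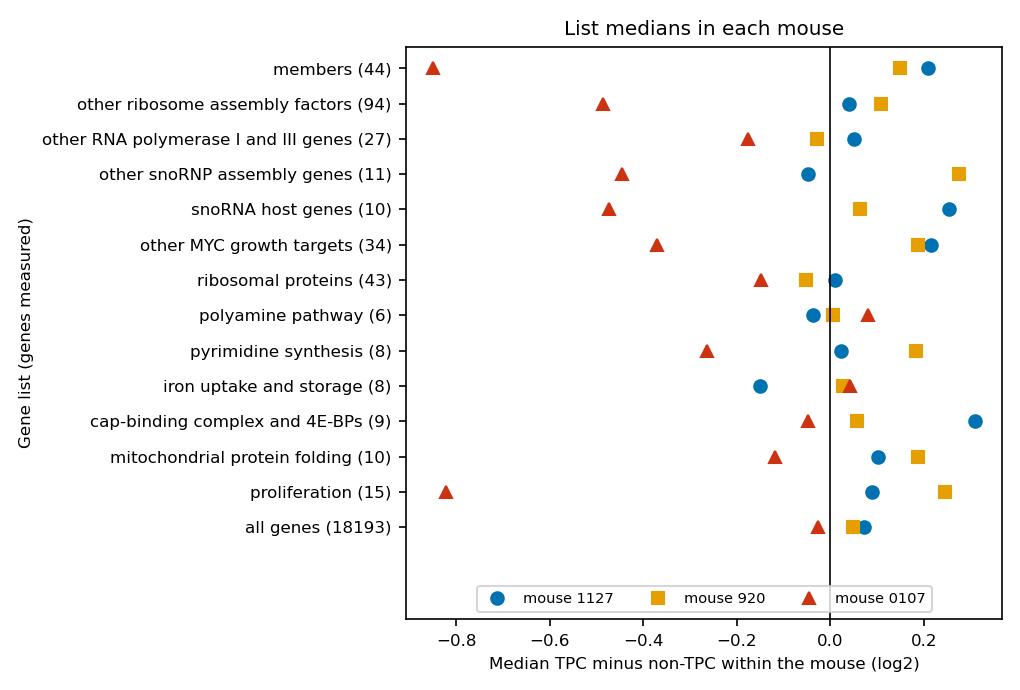
Median difference between TPCs and non-TPCs within each mouse (log2) for the members, the further pathway lists, proliferation genes and all genes; circles, squares and triangles stand for mice 1127, 920 and 0107, and the number of genes measured stands in brackets. In mouse 0107 the medians were -0.85 for the members, -0.49 for other assembly factors and -0.15 for ribosomal proteins, against -0.03 over all genes.

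Lists around the growth members were close to all genes or mixed. The 6 measured polyamine genes had medians of -0.04, 0.005 and 0.08 in mice 1127, 920 and 0107. Sat1, which acetylates spermidine for export, differed by -1.13, the spermine oxidase Smox by -0.51 and Azin2 by 0.38. The 8 pyrimidine genes had medians of 0.02, 0.18 and -0.26, with Tyms at -0.37, Nme2 at -0.27 and Umps at -0.28. Among 8 iron genes the medians were -0.15, 0.03 and 0.04; Hfe differed by -0.96, the iron exporter Slc40a1 by 1.03 and Tfr2 by 0.28. The 9 cap-binding genes had medians of 0.31, 0.06 and -0.05 (Eif4ebp2 0.28, Eif4e2 0.30, Eif4g2 0.11), and the 10 mitochondrial folding genes 0.10, 0.19 and -0.12 (Clpx 0.23, Dnaja3 0.16, Trap1 -0.19).

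Proliferation genes (15 of 16 measured, 14 above the median level, 0 at an unadjusted p under 0.05) had medians of 0.09, 0.24 and -0.82 in mice 1127, 920 and 0107, with mean levels from 9.71 to 10.15 in TPCs and from 9.91 to 10.31 in non-TPCs. The highest of these was the non-TPC array of mouse 0107 and the lowest its TPC array. Endothelial markers (9 measured, 4 above the median level) averaged 5.91 to 5.95 in TPCs and 6.73, 6.04 and 7.28 in non-TPCs of mice 1127, 920 and 0107. Of the 9, 8 were highest on the non-TPC array of mouse 0107, against 28.2% of all genes. For leukocyte markers (10 measured, 6 above) the mean level was 6.62 to 7.18 in TPCs and 7.30 to 8.10 in non-TPCs, and for macrophage markers (10 measured, 5 above) it was 6.64 to 7.44 in TPCs and 7.54 to 8.52 in non-TPCs.

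Neutrophil markers (7 of 8 measured, 4 above) averaged 5.84 to 6.32 in TPCs and 7.56 to 8.18 in non-TPCs, and fibroblast markers (8 of 9, 3 above) 5.84 to 6.02 in TPCs and 7.44 to 9.84 in non-TPCs. Alveolar type 2 markers (8 of 9, 7 above) averaged 7.39 to 7.60 in TPCs and 8.76 to 9.64 in non-TPCs, and club cell markers (6 measured, 5 above) 9.07 to 9.72 in TPCs and 9.85 to 11.40 in non-TPCs. On the non-TPC array of mouse 0107 the leukocyte, macrophage, fibroblast, alveolar type 2 and club lists had the lowest mean of the non-TPC arrays. The neuroendocrine list was lowest there as well, at 9.81, against 10.23 and 10.11 in non-TPCs of mice 1127 and 920. Its mean in TPCs was 10.12 or higher. The part of these cell types and of proliferation in the member values was not tested.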

How the data were processed

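The deposited values are log2 levels per probe set. RMA, a method that removes background, quantile normalises and combines probes, is named in the submitters' processing notes, without a version or probe set definition. The log2 base was read from the range of 2.70 to 14.81. Per the labels' protocols, RNA of sorted cells was labelled with biotin after the Affymetrix WT Plus kit, while the probe annotation is that of a 3′ expression array. Of 45101 probe sets, 34945 had 1 gene symbol, 932 several and 9160 none, and 64 were controls. Symbols were updated through Entrez identifiers to RefSeq (GRCm38.p6) for 18032 of 18193 genes. Each gene was represented by its brightest probe set, with no intensity filter; 32 of the 44 measured members had several.

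TPC and non-TPC arrays were compared over all genes with limma 3.58.1 in R 4.3.3 (two-sided, Benjamini-Hochberg over all genes, threshold 0.05), with only the fraction in the model, and the procedure was tested on simulated data. The mouse number in the labels pairs the fractions, which share an animal: deviations from the fraction means correlated at 0.30, 0.46 and 0.36 within mice 1127, 920 and 0107. The fit with this replicate block, with 2 residual degrees of freedom against 4, was run beside it. Other alternatives changed the probe set rule, a filter on dim genes, centring, the prior and the arrays included. Arrays carry no depth, and 3 per fraction limit the precision.

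The members and the lists were chosen with earlier results of these data known, so lists are described by counts and medians without a test. Genes given in full are the 10 members of smallest p, the 3 of largest difference each way, the 3 of widest range between mouse means and 13 fixed ones; pathway lists name their 3 smallest p. Eif4e was added after its values were seen, and the remaining members are given by their differences.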

Additional observations from a re-analysis of the deposited data

How the results depend on the processing

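Over the 16 alternatives, 0 of the 44 members passed, the smallest limma adjusted p being 0.313 when the non-TPC array of mouse 0107 was left out; 0 genes of any kind were higher in TPCs past the threshold. The count of genes past it, 11 and all lower in TPCs, was 13 under the replicate block (mouse), 39 with it as a random block, 4 with the mean of all probe sets, 7 with the brightest plain probe set, and 0 to 84 when a mouse or an array was left out: 0 without mouse 1127, 4 without 920, 1 without 0107, 1, 2 and 1 without the TPC array of mice 1127, 920 and 0107, and 2, 30 and 84 without the non-TPC array. The replicate block changed no call among the members. The member median of -0.11 was -0.05 with arrays centred on their medians, which moved the median of all genes from 0.04 to 0.10, and -0.12 with the mean of all probe sets. It was -0.20, -0.09 and -0.06 without the TPC array of mice 1127, 920 and 0107, and -0.18, -0.33 and 0.10 without the non-TPC array. Without mouse 0107, 34 of the 44 members were higher in TPCs and 25 changed sign. The median of ribosomal protein genes ranged from -0.1645 (without the TPC array of mouse 1127) to -0.0155 (without the non-TPC array of mouse 1127) when a mouse or an array was left out, and was 0.0008 with centred arrays. That of the polyamine genes, 0.16, ranged from 0.0693 to 0.1836, and was 0.0802 with the mean of all probe sets. The causes of these shifts were not tested. Within-mouse values rest on 1 array per fraction, and signal below the median gene level limits Rrp12, Tcof1 and Polr1b.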
